A study of Mus musculus with 10 samples.

Results

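Myc, Mycn, Mycl, Nras and Hras are the Myc and Ras family genes described here, 5 of the 38720 gene symbols in the count table. They were chosen by symbol as family genes known for their link to let-7 microRNAs, and not by their values. Earlier results of these data were known when they were chosen. All 5 passed the filter on low counts, which left 16340 tested genes. Their counts ran from 1086 to 11625 reads in a library, so none of the results for these 5 rests on a gene near the detection limit. Some other genes named below had low levels, Rasgrp1 in wild type among them.

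Tail buds, the tissue from which the body axis grows at its posterior end, were microdissected from mouse embryos at E12.5 and their RNA was sequenced. The series addresses the role of the Lin28/let-7 pathway in that tissue. The Lin28a-induced group (4 libraries, replicates 2, 3, 4 and 5) carried TRE-Lin28a, RLSL-rtTA and FoxD1-Cre and was treated with doxycycline. The no-Cre group (3 libraries, replicates 6, 7 and 8) carried TRE-Lin28a and RLSL-rtTA and was also treated with doxycycline. The wild-type group (3 libraries, replicates 1, 2 and 3) has labels that name neither a transgene nor doxycycline. In this system Cre removes a stop cassette, so rtTA is made only in cells with a history of FoxD1-Cre, and rtTA with doxycycline turns on the Lin28a transgene. RNA of the whole tail bud also holds that of cells without this history. The labels do not state that each library came from a separate embryo, so the p-values below cover the spread among libraries, which may be technical. In bulk RNA, fewer cells of a kind and less RNA per cell cannot be told apart.

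LIN28A binds let-7 precursors and blocks their maturation, and mature let-7 represses mRNAs that carry a match to its seed. Ras and Myc family mRNAs were described as let-7 targets in human cells, and they are among the best known oncogenes tied to this pathway. Myc proteins pair with MAX and activate genes of ribosome biogenesis and cell growth, and Mycn is the family member known for high expression in embryonic progenitors. Ras proteins are membrane-bound GTPases that pass growth factor signals, FGF among them, to the RAF, MEK and ERK kinases.

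The let-7 family of the mouse is shown first because its seed defines the matches. Of 10 mature let-7 names from 12 loci, 9 share the same seed and let-7j differs in its last base. The lines below print let-7a, let-7g, which shares its seed but not all of its later bases, and let-7j, 5′ to 3′, with bases 2 to 8 in capitals (RefSeq, GRCm38.p6).
mmu-let-7a-5p: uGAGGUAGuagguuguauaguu
mmu-let-7g-5p: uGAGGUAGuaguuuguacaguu
mmu-let-7j: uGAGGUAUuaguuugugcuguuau

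The longest annotated 3′ UTR of each gene was searched, on the transcript strand, for CTACCTC, which pairs with bases 2 to 8 of the common seed, and for TACCTCA, which pairs with bases 2 to 7 and ends in A. Overlapping matches counted once. Mycn and Nras held 2 matches each and Mycl held 1. The 3′ UTRs of Myc and Hras held none. The shorter stretch common to both motifs was not counted as a match on its own. It occurred 1 time in the 3′ UTR of Hras and 0 times in that of Myc. Each of the 5 matches is printed within 26 bases of the annotated transcript (GENCODE M21, mm10), with the matching letters in capitals.
Mycn, first match: cctaagtactgtaagaaTACCTCAat
Mycn, second match: cttagagcactttgaaaTACCTCAtg
Mycl: tgatcagcatggagcatTACCTCAcc
Nras, first match: gacctcttcagaataaCTACCTCctc
Nras, second match: ttagtgaaggtctgcttTACCTCAaa

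The Mycn matches lie at chr12:12936497-12936522 and chr12:12936126-12936151 on the minus strand, 501 and 872 bases into a 3′ UTR of 913 bases. The Mycl match lies at chr4:123001039-123001064 on the plus strand, 541 bases into a 3′ UTR of 1970 bases. The Nras matches lie at chr3:103064358-103064383 and chr3:103066915-103066940 on the plus strand, 187 and 2745 bases into a 3′ UTR of 3727 bases. Only the first Nras match covers bases 2 to 8, and none of the 5 is the 8-base form that combines both motifs. Across annotated coding transcripts with a complete 3′ end, the second Nras match occurs in 1 and each other match in 2. Such matches are common. At least 1 was found in 17.2% of 13591 tested genes with an annotated 3′ UTR. Among tested genes with a 3′ UTR within 20% of the length of Mycn, 11.1% held a match and 1.01% held at least 2. For the length of Nras these shares were 32.9% and 7.65%, and for Mycl 21.9% held a match. The 3′ UTRs of Myc (466 bases) and Hras (2096 bases) belong to length classes in which 7.01% and 23.4% held one. A match is a run of letters and not a measured binding site.

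**Figure D1:**
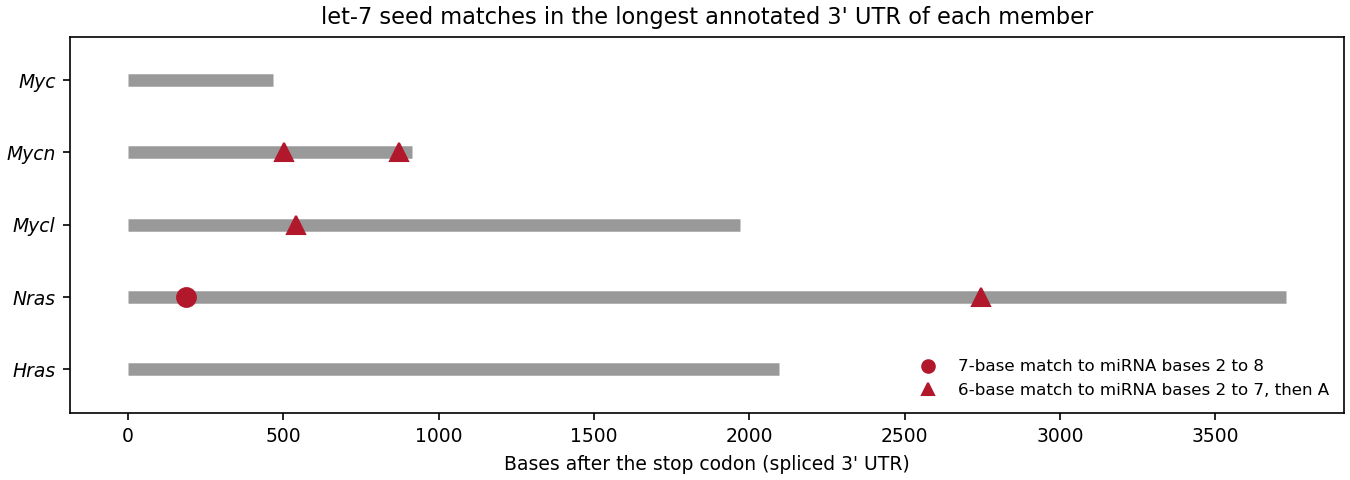
let-7 seed matches along the longest annotated 3′ UTR of Myc, Mycn, Mycl, Nras and Hras, as bases after the stop codon. The circle marks the 7-base match to bases 2 to 8 in Nras, the triangles mark the 4 matches to bases 2 to 7 followed by A, and the bars of Myc and Hras carry no symbol.

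Total counts ran from 21762668 to 39517946 per library. Every wild-type library, at 25316537 or fewer, lay below every library of the other groups, at 29300166 or more. Lin28a stood at 605 to 750.3 CPM (read counts scaled to a common library size with TMM factors) in the Lin28a-induced libraries, 2.64 to 5.03 CPM in the no-Cre libraries and 4.45 to 6.16 CPM in the wild-type libraries. The annotated 3′ UTR of Lin28a carries 2 let-7 matches of the 8-base form, a form found in 3.74% of tested genes with an annotated 3′ UTR. Whether the transgene carries this 3′ UTR was not tested. All 10 tail bud markers were detected in each group, with summed levels of 1204 to 1573, 1244 to 1313 and 642 to 1279 CPM in the Lin28a-induced, no-Cre and wild-type libraries. The wild-type libraries stood apart in quality and composition. Their share of counts at annotated pseudogenes averaged 0.301%, against 0.118% in Lin28a-induced and 0.121% in no-Cre libraries. Mitochondrially encoded transcripts took 0.562% ± 0.126 (SD, n = 4), 0.574% ± 0.0434 (n = 3) and 2.19% ± 0.442 (n = 3) of counts in the Lin28a-induced, no-Cre and wild-type libraries. Summed endothelial markers reached 243.6 to 341, 259.8 to 292 and 52.2 to 119 CPM in these groups, macrophage markers 81.3 to 103, 72.2 to 88.3 and 22.1 to 58.5 CPM, and surface ectoderm markers 180.0 to 194, 179 to 209 and 492 to 618 CPM.

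Mycn and Nras were the most abundant members in each group. On the scale of CPM per kilobase of annotated exon, which allows genes to be compared, Mycn averaged 57.1 ± 4.38 (SD, n = 4) in Lin28a-induced, 54.6 ± 4.36 (n = 3) in no-Cre and 37.5 ± 2.87 (n = 3) in wild-type libraries. Nras averaged 54.3 ± 2.98, 55.8 ± 0.545 and 48.8 ± 0.523 on the same scale. The levels of Mycn and Nras overlapped between libraries in the Lin28a-induced and no-Cre groups. In wild type each Nras level lay above each Mycn level. Hras averaged 18.2 ± 1.09, 17.2 ± 1.12 and 21.3 ± 1.46 CPM per kilobase in the Lin28a-induced, no-Cre and wild-type groups. Mycl averaged 15.4 ± 0.907, 14.8 ± 1.03 and 20.4 ± 1.92, and Myc averaged 15.3 ± 1.47, 16 ± 0.623 and 18.9 ± 2.51. Myc, Mycl and Hras thus formed a lower tier. Within it the levels of Myc and Mycl overlapped between libraries in each group. Hras lay above both in the Lin28a-induced libraries without overlap, at 17.2 to 19.5 CPM per kilobase beside 13.7 to 16.9 for Myc and 14.1 to 16.2 for Mycl. In no-Cre libraries Hras lay above Mycl and overlapped Myc, and in wild-type libraries it overlapped both.

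Lin28a-induced and no-Cre embryos share TRE-Lin28a, RLSL-rtTA and doxycycline, and differ in FoxD1-Cre. Their comparison thus covers Cre, the rtTA that it allows and the induced Lin28a together, which cannot be told apart. None of the 5 passed the threshold (edgeR quasi-likelihood test, Benjamini-Hochberg adjusted p of 0.05 over all tested genes), against 2.91% of all tested genes, 476 in number. At an unadjusted p of 0.05, 0 of the 5 passed, beside 2658 of the 16340 tested genes. DESeq2 called 0 of the 5, beside 931 over all tested genes, and limma-voom also called 0 of the 5. The groups overlapped in all 5 genes, while 23.4% of tested genes did not overlap. Every 95% interval of a member's fold change lay within 0.832 to 1.17. Lin28a itself differed 167-fold in the same fit.

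Mycn (chr12:12936093-12941914, minus strand) encodes N-MYC. It had 174, 185, 185 and 209 CPM in Lin28a-induced libraries, against 197, 172 and 172 CPM in no-Cre libraries. The highest level was in Lin28a-induced replicate 5 and the lowest levels were in no-Cre replicates 7 and 8, and the other libraries were interleaved. The log2 fold change was 0.07 ± 0.07 (SE, edgeR adjusted p = 0.740), with a 95% interval of -0.09 to 0.22.

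Myc (chr15:61985391-61990374, plus strand) encodes c-MYC. Its levels were 45.8, 37.3, 39.0 and 43.9 CPM in Lin28a-induced libraries and 43.6, 41.9 and 45.3 CPM in no-Cre libraries. The Lin28a-induced libraries spanned the no-Cre range on both sides. This gave a log2 fold change of -0.07 ± 0.09 (edgeR adjusted p = 0.777), with an interval of -0.26 to 0.12.

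Mycl (chr4:122995652-123002485, plus strand) encodes L-MYC. It had 62.3, 56.8, 65.3 and 63.6 CPM in Lin28a-induced libraries and 61.6, 62.6 and 55.0 CPM in no-Cre libraries. Replicate 3 was the lowest of the Lin28a-induced group and replicate 8 the lowest of the no-Cre group. Mycl had a log2 fold change of 0.05 ± 0.07 (edgeR adjusted p = 0.793), and without no-Cre replicate 8 it was -0.0024.

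Nras (chr3:103058285-103067914, plus strand) encodes a Ras GTPase that is palmitoylated and cycles between Golgi and plasma membrane. It had 268, 287, 306 and 295 CPM in Lin28a-induced libraries and 298, 294 and 300.0 CPM in no-Cre libraries. The no-Cre libraries lay close together, inside the wider Lin28a-induced range. Nras had a log2 fold change of -0.04 ± 0.05 (edgeR adjusted p = 0.776), with an interval of -0.15 to 0.07. Of its 32-base words, 2.73% also occur in other annotated genes, against at most 0.223% for the other 4 members.

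Hras (chr7:141189105-141194005, minus strand) encodes a Ras GTPase that is also palmitoylated. It had 72.7, 64.4, 69.9 and 64.7 CPM in Lin28a-induced libraries and 65.2, 67.8 and 59.6 CPM in no-Cre libraries. The highest level was Lin28a-induced and the lowest was no-Cre, with the rest interleaved. Hras had a log2 fold change of 0.08 ± 0.07 (edgeR adjusted p = 0.612), with an interval of -0.06 to 0.22.

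Members with and without let-7 matches had log2 fold changes of either sign in this comparison. No test was made of this split. Mycn, Mycl and Nras gave log2 fold changes of 0.07, 0.05 and -0.04, and Myc and Hras, with no match, gave -0.07 and 0.08. The median absolute log2 fold change of all tested genes was 0.12, above each of these 5 values. Small changes, within the members' 95% intervals of 0.832 to 1.17 in fold change, could be missed. On simulated counts, with changed genes drawn from all tested genes, the test recovered 18 of 52 given a 1.3-fold change. It recovered 24 of 45 at 1.5-fold and 31 of 43 at 2-fold. These shares cover genes of all count levels and do not give the recovery of the 5 members.

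**Figure D2:**
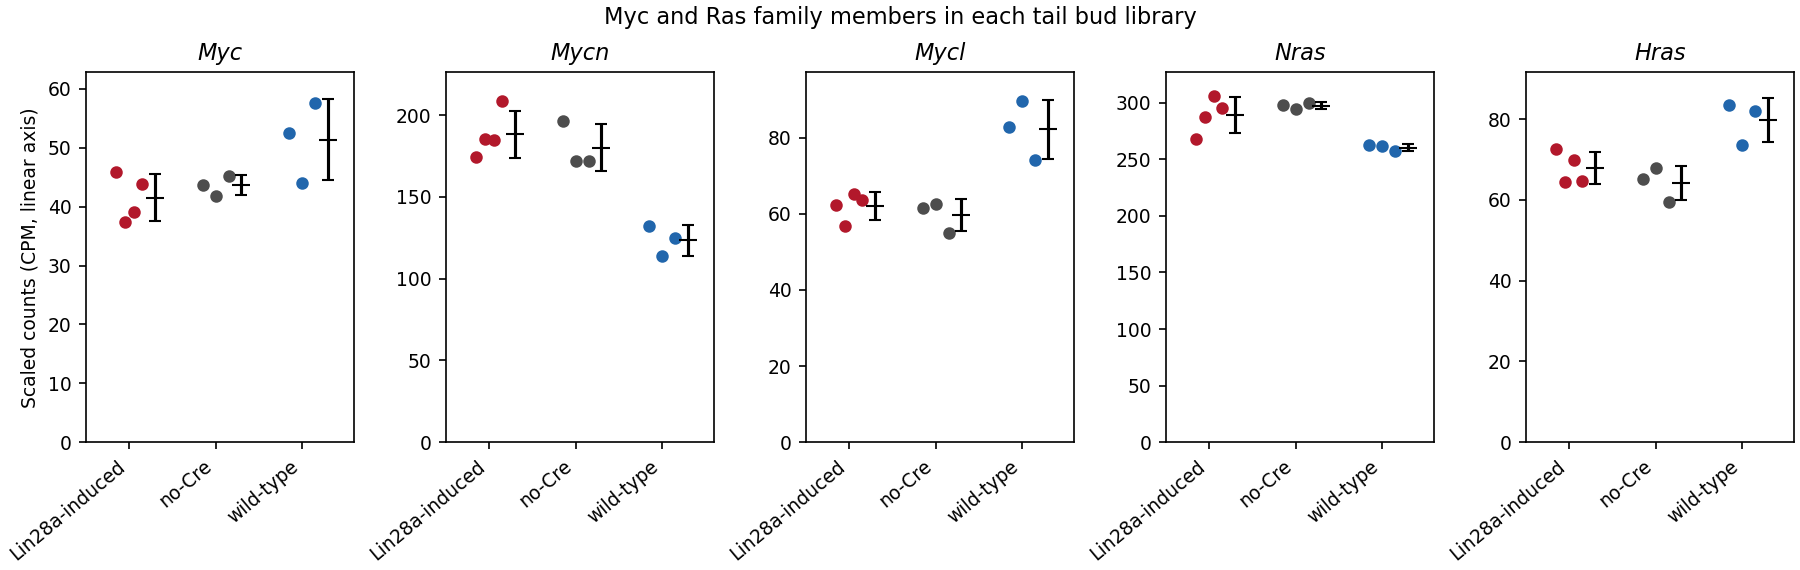
Scaled counts (CPM, linear axis from 0) of the 5 genes in each library, as points, for the Lin28a-induced (n = 4), no-Cre (n = 3) and wild-type (n = 3) groups, with the group mean ± SD beside them. Lin28a-induced and no-Cre points overlap in every panel, while Mycn stands higher and Mycl and Hras stand lower than wild type in both transgenic groups.

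The Lin28a-induced libraries differed from wild type in all 5 genes by the edgeR test. This comparison covers the transgenes, Cre, doxycycline and any difference between litters or strains, which cannot be told apart. Of all tested genes 49.3% passed (8050), 24.3% higher and 25.0% lower, so passing is common here, and the direction and size of each gene carry the description. Mycn and Nras were higher, and Myc, Mycl and Hras were lower. In 4 of the 5 the groups did not overlap, against 49.3% of tested genes. The wild-type libraries that differ in total counts, in mitochondrial share and in endothelial, macrophage and surface ectoderm markers are the same ones. The part of these differences in the results was not tested.

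Mycn stood at 174 to 209 CPM in Lin28a-induced libraries, against 132, 114 and 125 CPM in wild-type libraries. Every Lin28a-induced library lay well above every wild-type library. Mycn was 1.52-fold higher, a log2 fold change of 0.61 ± 0.08 (edgeR adjusted p = 2.24e-05), larger in size than that of 74.3% of tested genes. Without any single library it stayed between 0.55 and 0.66.

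Mycl moved the other way. It stood at 56.8 to 65.3 CPM in Lin28a-induced libraries, against 82.7, 89.6 and 74.2 CPM in wild-type libraries, with no overlap. Its log2 fold change was -0.41 ± 0.07 (edgeR adjusted p = 0.000410).

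Hras stood at 64.4 to 72.7 CPM in Lin28a-induced libraries, against 83.6, 73.5 and 82.0 CPM in wild-type libraries. Wild-type replicate 2 came within 1 CPM of Lin28a-induced replicate 2, without overlap. The log2 fold change was -0.23 ± 0.07 (edgeR adjusted p = 0.00995).

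Myc stood at 37.3 to 45.8 CPM in Lin28a-induced libraries, against 52.5, 44.1 and 57.6 CPM in wild-type libraries. Wild-type replicate 2 lay inside the Lin28a-induced range. The log2 fold change was -0.31 ± 0.09 (edgeR adjusted p = 0.0124), and without wild-type replicate 3 it was -0.22 (adjusted p = 0.0656), which no longer passed.

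Nras stood at 268 to 306 CPM in Lin28a-induced libraries, against 262, 262 and 257 CPM in wild-type libraries. The lowest Lin28a-induced library was only just above wild type. Its log2 fold change was 0.15 ± 0.05 (edgeR adjusted p = 0.0237), smaller in size than the median of 0.31 over all tested genes. The call was lost without Lin28a-induced replicate 4 (adjusted p = 0.0820), Lin28a-induced replicate 5 (0.0586) or wild-type replicate 3 (0.0557), and with only these groups in the fit (0.0688).

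Against wild type, the no-Cre libraries differed in 4 of the 5 genes, in the same directions, while 42.5% of all tested genes passed (6938). These embryos carry no Cre. Both comparisons use the same wild-type libraries, so they are not independent. The groups did not overlap in 4 genes, against 52.0% of tested genes. Mycn was higher at 172 to 197 CPM in no-Cre, against 114 to 132 CPM in wild type (log2 fold change 0.54 ± 0.08, edgeR adjusted p = 0.000136). Mycl was lower at 55.0 to 62.6 CPM, against 74.2 to 89.6 CPM in wild type (-0.46 ± 0.08, adjusted p = 0.000397). Hras was lower at 59.6 to 67.8 CPM, against 73.5 to 83.6 CPM (-0.31 ± 0.07, adjusted p = 0.00316), and Nras was higher at 294 to 300.0 CPM, against 257 to 262 CPM (0.19 ± 0.05, adjusted p = 0.0118). Myc had 41.9 to 45.3 CPM in no-Cre and 44.1 to 57.6 CPM in wild type. Its log2 fold change of -0.24 ± 0.10 did not pass (edgeR adjusted p = 0.0642), although it did without wild-type replicate 2 (-0.34, adjusted p = 0.00438).

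**Figure D3:**
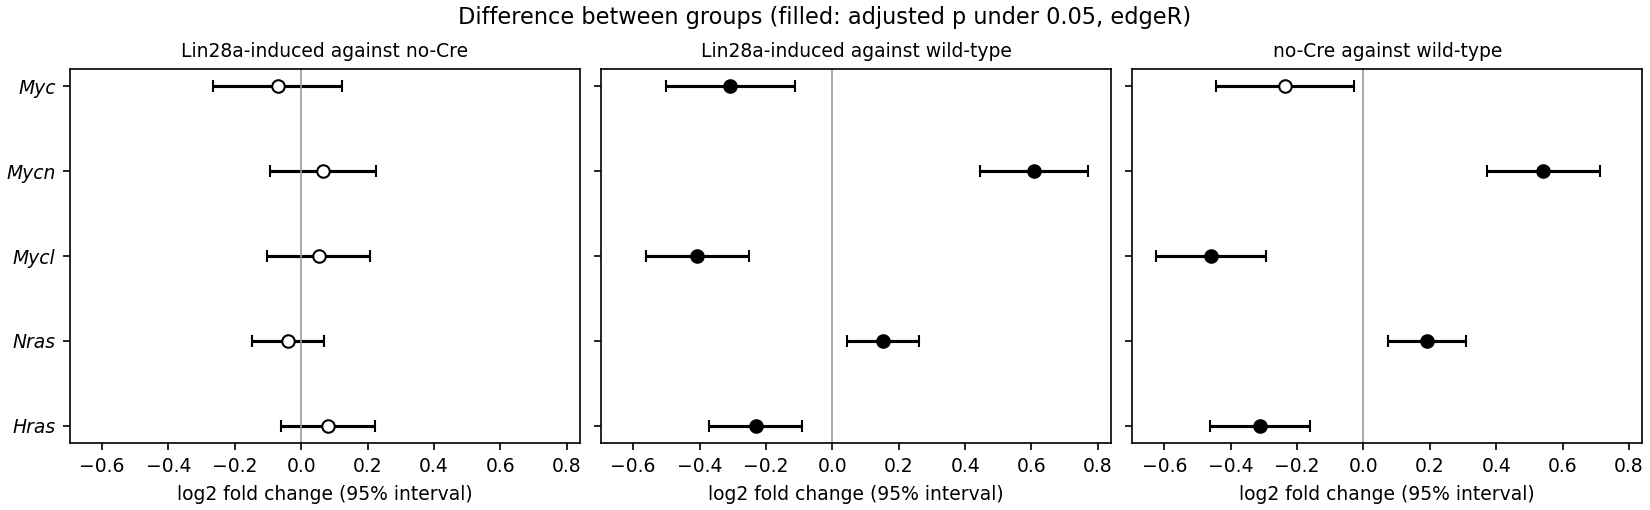
log2 fold change with 95% interval of each of the 5 genes in the 3 comparisons, from the edgeR fit of all 10 libraries, with filled circles for an adjusted p under 0.05. All intervals in the Lin28a-induced against no-Cre panel cross 0, and both panels against wild type show Mycn and Nras above 0 and Myc, Mycl and Hras below 0.

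Nras had the lowest GC content of the 5 genes, at 42.6% of the bases of its longest annotated transcript. By the same measure Hras had 55.2% and the Myc genes had 53.3% to 55.8%. Over all tested genes the third of lowest GC had a median log2 fold change of -0.08 in Lin28a-induced against wild-type libraries and the third of highest GC one of 0.06. With offsets for GC and length, chosen after the data were seen, all 5 genes kept their direction and call in this comparison.

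The balance within the Myc family differed between the transgenic groups and wild type. As a share of the family's CPM per kilobase, Mycn made up 65.1% ± 2.18 (SD, n = 4) in Lin28a-induced, 63.9% ± 1.5 (n = 3) in no-Cre and 48.8% ± 1.46 (n = 3) in wild-type libraries. Mycl made up 17.5% ± 1.03, 17.3% ± 1.17 and 26.6% ± 3.47, and Myc made up 17.4% ± 1.6, 18.8% ± 1.3 and 24.6% ± 2.59. Each wild-type library thus had near equal parts of Mycn and of Myc with Mycl together, while the other 7 libraries were dominated by Mycn. The family's sum changed less, with 87.8 ± 5.06, 85.4 ± 4.79 and 76.8 ± 3.60 CPM per kilobase in Lin28a-induced, no-Cre and wild-type libraries.

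The ratio of Mycn to Myc per kilobase was 3.14, 4.09, 3.91 and 3.92 in Lin28a-induced libraries, 3.71, 3.38 and 3.13 in no-Cre libraries and 2.08, 2.13 and 1.79 in wild-type libraries. The Lin28a-induced and no-Cre ratios overlapped, and both lay above all wild-type ratios. The two-sided p-value of the exact permutation test was taken as the smaller tail doubled. In the mean log2 ratio, Lin28a-induced exceeded no-Cre by 0.14 (exact permutation test, two-sided p = 0.286). The Lin28a-induced group exceeded wild type by 0.91 (exact permutation p = 0.0571, the smallest that 4 against 3 libraries allow with this doubling). The no-Cre group exceeded wild type by 0.77 (exact permutation p = 0.1, the smallest that 3 against 3 allow). Calculated this way, the p-value cannot reach 0.05 in these designs. The ratio is the difference of the fold changes given above and adds no independent evidence.

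**Figure D4:**
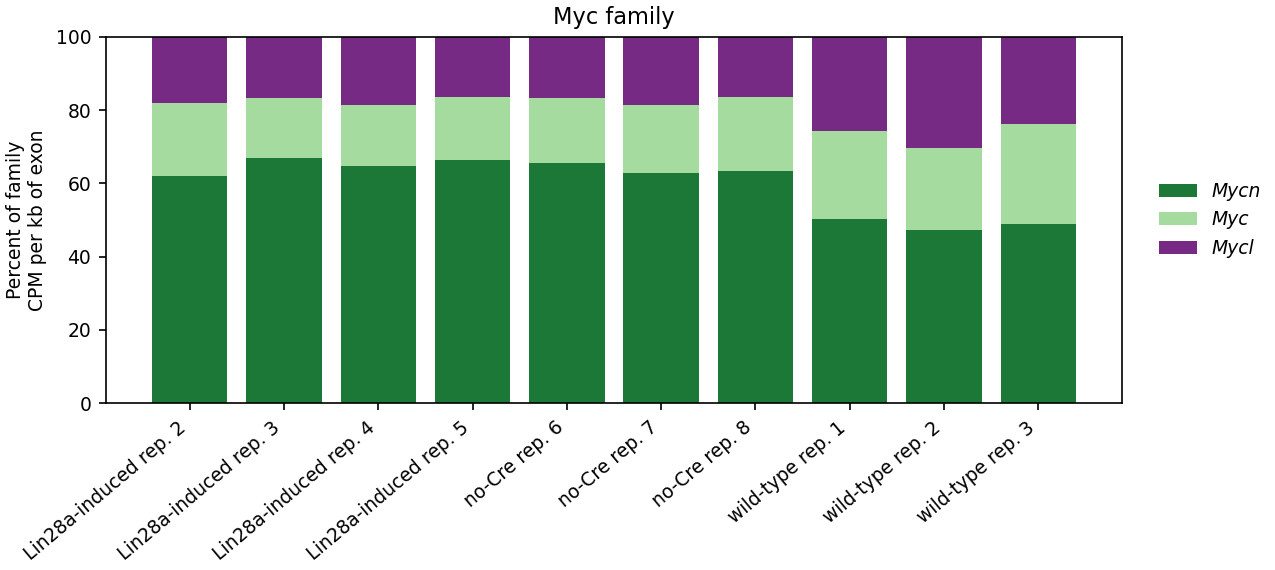
Stacked bars of each library's Myc family (Mycn, Myc, Mycl) as percent of the family's CPM per kilobase of exon, with Lin28a-induced libraries at left, then no-Cre and wild type. Mycn takes 62.1% to 66.9% in Lin28a-induced, 62.8% to 65.6% in no-Cre and 47.3% to 50.2% in wild-type libraries.

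Genes around the Myc and Ras proteins were described in 8 lists with 116 genes, of which 113 were tested. Between Lin28a-induced and no-Cre libraries, 1 gene was higher and 1 was lower, against 1.76% and 1.15% of all tested genes. At an unadjusted p of 0.05, 26 of the 113 passed, beside 2658 of the 16340 tested genes. DESeq2 called 8, beside 931 over all tested genes. Limma-voom called 3, and the 9 other settings, limma-voom among them, called 303 to 1791 over all tested genes. Without wild-type replicate 2, edgeR called 11, beside 1482 over all tested genes. With only these groups in the fit it called 15, beside 1791. The list medians lay between -0.07 and 0.05 in log2 fold change, near the median of 0.00 over all tested genes. The summed red blood cell markers were 3654 to 5977 CPM in Lin28a-induced and 5512 to 9314 CPM in no-Cre libraries, and their part in these values was not tested.

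Odc1, a known Myc target, encodes ornithine decarboxylase, the rate-limiting enzyme of polyamine synthesis. It was higher in Lin28a-induced than in no-Cre libraries. It had 363, 346, 355 and 346 CPM in Lin28a-induced libraries and 289, 272 and 239.8 CPM in no-Cre libraries. The groups were well separated. The log2 fold change was 0.40 ± 0.06 (edgeR adjusted p = 0.00329), and it passed in all 10 fits that left out a library. In wild type Odc1 was lower still, at 194, 183 and 189 CPM, so the 3 groups did not overlap. It was the only one of 24 listed Myc target genes of ribosome biogenesis and growth that passed between Lin28a-induced and no-Cre libraries, and the list's median was 0.05. Nop56, a core protein of small nucleolar ribonucleoproteins, and Nolc1, a nucleolar phosphoprotein, had log2 fold changes of 0.20 ± 0.07 (adjusted p = 0.137) and 0.20 ± 0.07 (0.151).

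Fbxw7, the F-box protein that marks Myc proteins for degradation, was lower in Lin28a-induced than in no-Cre libraries. It had 39.7, 45.5, 42.9 and 44.2 CPM in Lin28a-induced libraries and 50.9, 53.8 and 54.1 CPM in no-Cre libraries. The groups did not overlap, and the log2 fold change was -0.30 ± 0.06 (edgeR adjusted p = 0.0250). The call was lost without Lin28a-induced replicate 2, 4 or 5 (adjusted p = 0.0661, 0.0836 and 0.0549) and without no-Cre replicate 6, 7 or 8 (0.0766, 0.132 and 0.136). Zbtb17, the zinc finger partner through which Myc represses genes, was at 49.7 to 54.1 CPM in Lin28a-induced and 43.3 to 47.4 CPM in no-Cre libraries. Its log2 fold change of 0.23 ± 0.06 missed the threshold (edgeR adjusted p = 0.0508), and DESeq2 and limma-voom placed it past the threshold. Huwe1, another ubiquitin ligase of Myc, did not pass (-0.22 ± 0.09, adjusted p = 0.238).

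The 10 genes of the Myc dimer network are Max, Mlx and genes whose proteins compete for MAX or MLX. None passed in this comparison, and DESeq2 and limma-voom also called 0. At an unadjusted p of 0.05, 4 passed in the edgeR fit, beside 2658 of the 16340 tested genes. The leading genes were Mxd4 and Mxi1, antagonists of Myc that bind MAX, with log2 fold changes of -0.18 ± 0.07 and -0.14 ± 0.06, and Mlx, the MAX-like partner, with 0.16 ± 0.07. Their adjusted p-values by edgeR were 0.226, 0.279 and 0.254.

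Around Ras, no gene of the 5 lists passed in the edgeR fit. At an unadjusted p of 0.05, 1 to 4 genes per list passed, beside 2658 of the 16340 tested genes. DESeq2 called 1 gene in each of these lists and limma-voom 0. The genes with the smallest p lay in both directions. Among other Ras subfamily GTPases, Rras was at 9.15 to 10.4 CPM in Lin28a-induced and 11.7 to 12.1 CPM in no-Cre libraries (log2 fold change -0.29 ± 0.09, edgeR adjusted p = 0.0995), and Mras was at 14.4 to 16.4 and 11.1 to 13.8 CPM (0.30 ± 0.09, adjusted p = 0.109). Rap2a had a log2 fold change of 0.17 ± 0.07 (adjusted p = 0.242). The GTPase activators Rasal2 and Nf1 and the exchange factor Rasgrp3 had -0.25 ± 0.07, -0.26 ± 0.08 and -0.35 ± 0.12, with adjusted p-values of 0.0964, 0.124 and 0.158.

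Lypla1, a thioesterase that removes palmitate from proteins including Ras, was at 79.9 to 85.7 CPM in Lin28a-induced and 93.1 to 96.6 CPM in no-Cre libraries (log2 fold change -0.18 ± 0.05, edgeR adjusted p = 0.101). Its paralog Lypla2 and the Ras palmitoyltransferase Zdhhc9 had 0.09 ± 0.05 and 0.13 ± 0.06 (adjusted p = 0.387 and 0.359). Among effectors, Shoc2, a scaffold that helps activate RAF, was at 80.8 to 84.7 and 88.6 to 92.2 CPM in Lin28a-induced and no-Cre libraries (-0.15 ± 0.04, adjusted p = 0.0942). Map2k1, which encodes MEK1, and Tiam1, a RAC exchange factor, had -0.15 ± 0.06 and -0.16 ± 0.07 (adjusted p = 0.223 and 0.265). Among ERK feedback and output genes, the ETS factor Etv1 was at 7.85 to 9.26 CPM in Lin28a-induced and 10.6 to 12 CPM in no-Cre libraries (-0.43 ± 0.12, adjusted p = 0.0684). Spry1, an inhibitor of receptor tyrosine kinase signalling, and Fosl1, an AP-1 subunit, had -0.14 ± 0.06 and 0.23 ± 0.17 (adjusted p = 0.288 and 0.577).

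Against wild type the same lists held many called genes, most of them higher. Of the 113 genes, 48 were higher and 16 lower in Lin28a-induced libraries, and 44 were higher and 11 lower in no-Cre libraries, beside 24.3%, 25.0%, 21.0% and 21.4% of all tested genes. The lists were chosen with earlier results of these data known, and the wild-type libraries are shared between both comparisons. Some listed genes, Rasgrp1 and Rasgrp3 among them, are also known from blood or endothelial cells, and the endothelial and macrophage marker sums given above differ in the same direction. The part of those cells in these values was not tested.

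Of 15 tested genes in the list of Ras exchange factors and GTPase activators, 9 were higher and 0 lower in Lin28a-induced libraries. In no-Cre libraries 12 were higher and 0 lower. The list also holds the adaptors Grb2 and Shc1 and the phosphatase Ptpn11, which belong to neither class. The medians were 0.26 and 0.30, against -0.02 over all tested genes in each. Rasgrp3, an exchange factor known in endothelial and B cells, was at 23.4 to 35.6 CPM in Lin28a-induced, 33.5 to 40.8 CPM in no-Cre and 9.78 to 11.5 CPM in wild-type libraries (log2 fold changes against wild type 1.43 ± 0.13 and 1.78 ± 0.14). Rasgrp1, known in lymphocytes, was at 3.76 to 5.27, 4.74 to 9.20 and 0.608 to 1.01 CPM (2.41 ± 0.28 and 3.02 ± 0.29). Dab2ip, a GTPase activator, was at 245 to 270, 266 to 272 and 137 to 159 CPM (0.77 ± 0.06 and 0.83 ± 0.06). The edgeR adjusted p-values of these genes against wild type were at most 1.32e-05.

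Of 14 ERK feedback and output genes, 7 were higher and 2 lower in Lin28a-induced libraries, and 7 were higher and 0 lower in no-Cre libraries, with medians of 0.50 and 0.51. Dusp6, the phosphatase that inactivates ERK, was at 267 to 286 CPM in Lin28a-induced, 247 to 269 CPM in no-Cre and 149.8 to 214 CPM in wild-type libraries (log2 fold changes against wild type 0.55 ± 0.10 and 0.47 ± 0.10, edgeR adjusted p = 0.000526 and 0.00335). Etv5, an ETS factor induced by FGF signalling, was at 109 to 128, 113 to 121 and 44.4 to 80.8 CPM (0.80 ± 0.18 and 0.78 ± 0.19, adjusted p = 0.00568 and 0.0105). Dusp4, a nuclear ERK phosphatase, had 266 to 334, 253 to 328 and 63.6 to 157 CPM (1.3 ± 0.30 and 1.25 ± 0.31, adjusted p = 0.00814 and 0.0141). The feedback inhibitor Spry4 had 106 to 117, 97.6 to 118 and 51.8 to 88.9 CPM (0.60 ± 0.16 and 0.59 ± 0.16, adjusted p = 0.0101 and 0.0173). In each of these genes wild-type replicate 2 was the lowest library, as it was for the summed tail bud markers (642 CPM). In no-Cre against wild type, Spry4 lost its call without no-Cre replicate 6 (adjusted p = 0.0538) or 8 (0.0586), with no low-count filter (0.0545) and with only these groups in the fit (0.0535), which also ended the call of Dusp4 (0.0529). The direction was not uniform. Spry1 was 1 of the 2 lower genes in Lin28a-induced libraries (-0.30 ± 0.06, edgeR adjusted p = 0.00163). The lowest log2 fold changes of the list, in genes not named here, were -0.74 in Lin28a-induced and -0.46 in no-Cre libraries against wild type.

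**Figure D5:**
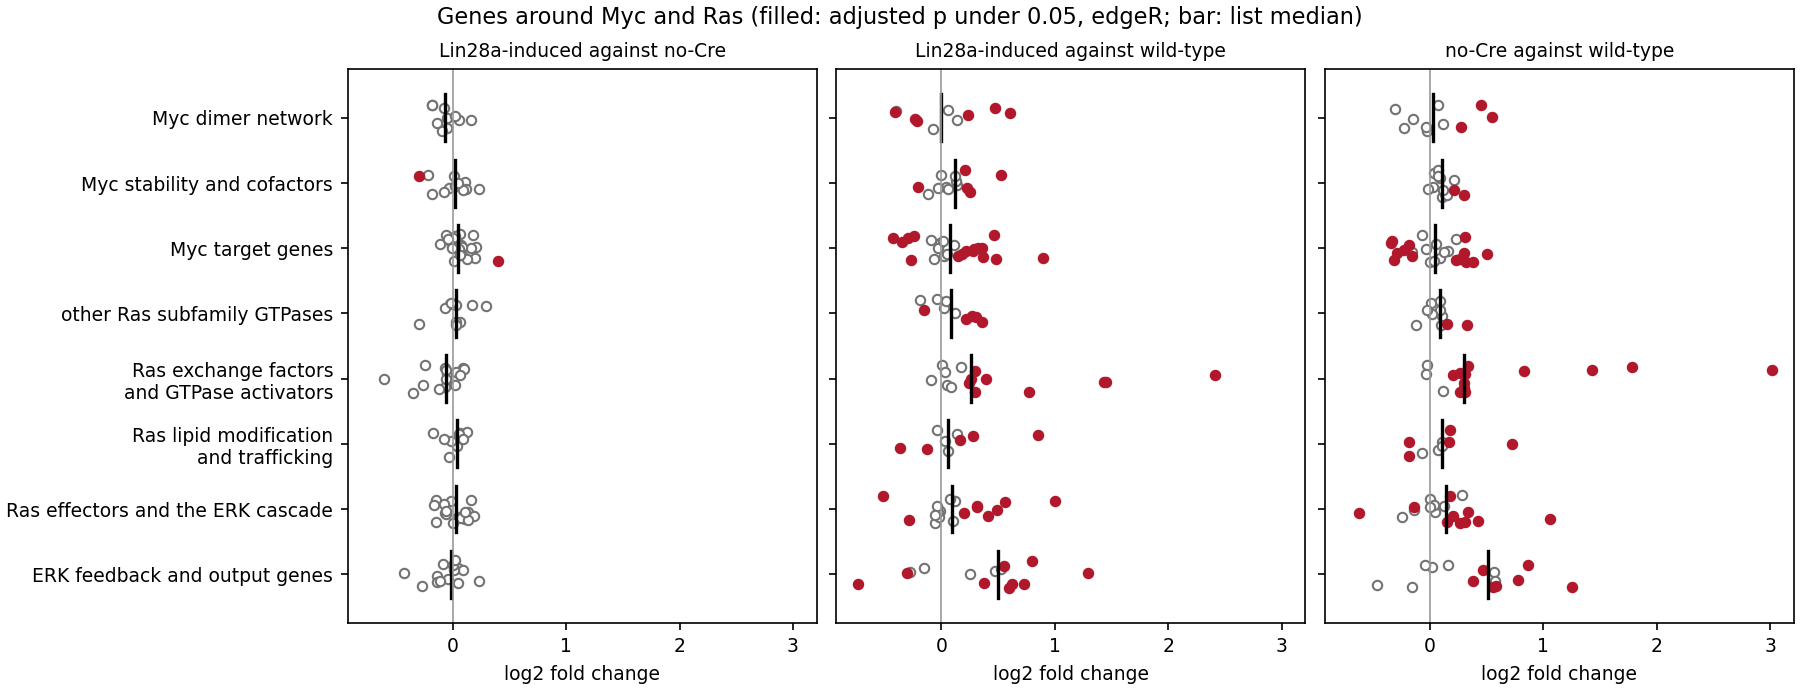
log2 fold change of each tested gene in 8 lists around Myc and Ras, in the 3 comparisons, with filled circles for an edgeR adjusted p under 0.05 and a bar at the list's median. Only Odc1 and Fbxw7 are filled in the Lin28a-induced against no-Cre panel, and the medians of exchange factors with GTPase activators and of ERK feedback genes lie at 0.26 to 0.51 in the panels against wild type.

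The Myc lists were mixed against wild type. Of 24 Myc target genes, 11 were higher and 5 lower in Lin28a-induced libraries, and 7 were higher and 7 lower in no-Cre libraries, with medians of 0.08 and 0.04. Srm, which encodes spermidine synthase, acts downstream of ornithine decarboxylase and was at 142 to 157 CPM in Lin28a-induced, 134 to 157 CPM in no-Cre and 96.1 to 121 CPM in wild-type libraries (0.46 ± 0.08 and 0.38 ± 0.08, edgeR adjusted p = 0.000326 and 0.00279). Odc1 was higher by 0.90 ± 0.06 and 0.50 ± 0.06 (adjusted p = 1.14e-07 and 4.75e-05). Ldha, which encodes lactate dehydrogenase A, and Ccnd2, which encodes cyclin D2, were lower. Ldha had log2 fold changes of -0.43 ± 0.08 and -0.31 ± 0.09 (adjusted p = 0.00112 and 0.0145), and Ccnd2 had -0.34 ± 0.05 and -0.34 ± 0.06 (adjusted p = 0.000148 and 0.000438). In no-Cre against wild type, Ldha lost its call without no-Cre replicate 7 (adjusted p = 0.0560) or wild-type replicate 1 (0.0540).

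In the dimer network, 3 of 10 genes were higher and 3 lower in Lin28a-induced libraries, and 3 were higher and 0 lower in no-Cre libraries. Mnt, a MAX partner that represses Myc targets, was at 42.8 to 48.2 CPM in Lin28a-induced, 42.0 to 43.9 CPM in no-Cre and 25.9 to 33.3 CPM in wild-type libraries (0.60 ± 0.08 and 0.55 ± 0.08, edgeR adjusted p = 3.93e-05 and 0.000192). Among 13 stability factors and cofactors, 4 were higher and 1 lower in Lin28a-induced libraries and 2 higher and 0 lower in no-Cre libraries. Zbtb17 was among the higher genes in both, by 0.53 ± 0.06 and 0.30 ± 0.06 (adjusted p = 1.03e-05 and 0.00216).

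For the remaining Ras lists against wild type, Lin28a-induced libraries had 4 higher and 1 lower of 10 other Ras subfamily GTPases, 3 higher and 2 lower of 9 genes of lipid modification and trafficking, and 7 higher and 2 lower of 18 effector and ERK cascade genes. The no-Cre libraries had 2 and 0, 3 and 2, and 8 and 2. Ralb, a GTPase of the Ral branch of Ras signalling, was at 82.1 to 86.5 CPM in Lin28a-induced, 80.9 to 82.6 CPM in no-Cre and 60.5 to 71.2 CPM in wild-type libraries (0.35 ± 0.06 and 0.33 ± 0.06, edgeR adjusted p = 0.000160 and 0.000699). Zdhhc9 was at 30.7 to 34.0, 29.0 to 31.6 and 17.9 to 18.3 CPM (0.85 ± 0.07 and 0.73 ± 0.07, adjusted p = 3.96e-07 and 3.95e-06). Lypla1, the opposing thioesterase, was lower, with log2 fold changes of -0.36 ± 0.05 and -0.19 ± 0.06 (adjusted p = 0.000104 and 0.0192). The no-Cre call was lost without no-Cre replicate 7 (0.0703) or 8 (0.0694), with no low-count filter (0.0649), with only these groups in the fit (0.0530) and with offsets for GC and length (0.0529).

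The genes whose levels followed each member most closely were found by the root mean square difference of centred log2 CPM over the 10 libraries, among 13945 named genes. For Mycn they were Zfp41 (0.0578) and Fam171a1 (0.0636), for Myc Higd2a (0.0692) and Ticam1 (0.0726), and for Mycl Fam83g (0.0422) and Dad1 (0.0478). For Nras they were Grb10 (0.0268) and Stag1 (0.0355), and for Hras Cenpm (0.0462) and Abt1 (0.0512). Grb10, an imprinted gene that encodes an adaptor of insulin and growth factor receptors, was at 1339 to 1511 CPM in Lin28a-induced, 1441 to 1497 CPM in no-Cre and 1277 to 1326 CPM in wild-type libraries. Zfp41 was at 115 to 130 CPM in Lin28a-induced, 115 to 121 CPM in no-Cre and 76.1 to 89.4 CPM in wild-type libraries. These likenesses share the same libraries and the same contrast with wild type, and they are given as a description with no test.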

How the data were processed

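The authors deposited raw counts of reads per gene symbol, 1 column per library, with no normalization. Per the labels' protocols, directional libraries were made from total RNA and read as single reads of 75 bases on a NextSeq instrument. Per the submitters' processing notes, STAR 2.3.1z4, featureCounts, DESeq2 and mm10 were used. How the counting treated strand and multiply aligned reads, and which annotation it used, is not given in the sources used here. Reads of genes with shared sequence can therefore be lost or split.

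After filterByExpr and TMM scaling, the counts were tested with the robust quasi-likelihood method of edgeR 4.0.16, with all 10 libraries in 1 fit and 1 coefficient per group, in R 4.3.3. P-values were adjusted over the 16340 tested genes of each of 3 comparisons, with a threshold of 0.05. Adjusted p-values come from edgeR unless another tool is named. The SE of a log2 fold change is its size over the root of the F statistic. CPM per kilobase divides by the summed length of annotated exons. Alternatives used DESeq2 1.42.0, its size factors in edgeR, limma 3.58.1 (voom), no low-count filter, a minimum of 1 CPM in 3 libraries, a sex covariate (from Xist and Ddx3y counts), a spread that is not robust, only the groups compared, a replicate block and leaving out each library. Offsets for GC content and length (available for 94.6% of tested genes) and a fit of the same 4 libraries as the block but without it were chosen after seeing the data. Tables and figures were made in Python 3.11.15 with pandas 2.3.3, matplotlib 3.10.9 and numpy 2.4.6.

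Members and lists were chosen with earlier results of these data known. The rule for named genes takes the 5 members and Lin28a, up to 3 genes per list with the smallest p between Lin28a-induced and no-Cre libraries, and for each member the 2 genes of most similar pattern, with 0.5 added to CPM before log2. 1 listed gene is not reported here. Mnt, Ldha, Ccnd2, Srm, Dab2ip, Rasgrp1, Ralb, Dusp4, Dusp6, Etv5 and Spry4 were named after their values were seen. The test was tried on simulated counts with 200 changed genes. For Lin28a-induced against no-Cre libraries it made 10 false calls among 16140 unchanged genes.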

Additional observations from a re-analysis of the deposited data

Results flagged for a closer look

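Among 51 named genes, the 4 Lin28a-induced libraries were searched for a library far from the others, and 2 genes had one. Chance flags about 1 in 20 such groups. Shoc2 stood at 84.7 CPM in Lin28a-induced replicate 4, against 80.8 to 81.3 CPM in the other Lin28a-induced libraries. Tiam1 stood at 99 CPM in Lin28a-induced replicate 2, against 111 to 112 CPM in the others. In both genes the Lin28a-induced libraries, the distant one included, stayed below all no-Cre libraries. None of the 5 Myc and Ras members had such a library.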

How the results depend on the processing

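Between Lin28a-induced and no-Cre libraries, 0 of the 5 members passed under each of 9 other settings and 10 fits without a library. Mycl changed sign without no-Cre replicate 8 (-0.0024, against 0.05 with all libraries, and at most 0.089 without a library). Over all tested genes, 476 passed, 931 with DESeq2, 303 with a sex covariate, 1791 with only these groups, and 104 to 1482 without a library, the highest without wild-type replicate 2 and the lowest without no-Cre replicate 7. In the 8 lists 2 genes passed, 8 with DESeq2, 15 with only these groups, and 1 to 11 without a library, 11 without wild-type replicate 2. Against wild type the fits without a library gave 55 to 63 list genes in Lin28a-induced and 37 to 56 in no-Cre libraries. Over all tested genes these fits gave 7037 to 8211 and 5550 to 7319. Why leaving out a wild-type library moves these counts was not tested. With only these groups in the fit, Nop56, Nolc1, Rras, Mras, Rasal2, Lypla1, Shoc2, Map2k1, Tiam1, Etv1 and Zbtb17 passed between Lin28a-induced and no-Cre libraries.

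Mycn and Mycl kept direction and call in both comparisons against wild type under every setting run, the replicate block included. Replicate numbers 2 and 3 are shared by Lin28a-induced and wild-type libraries, and no label says that they pair embryos. Same-numbered libraries did not deviate together (r = -0.01 and -0.12 across genes). With the replicate block, which keeps only 4 libraries, 3596 genes and 2 of the 5 members passed, and 21 of the list genes. The same 4 libraries with no block gave 2651 genes and 2 members. In these fits Myc had -0.29 (adjusted p = 0.216, and 0.241 without the block), Nras had 0.10 (0.654 and 0.541) and Hras had -0.18 (0.345 and 0.282). Dusp4 (adjusted p = 0.337 with the block and 0.0709 without), Etv5 (0.135 and 0.0613), Spry1 (0.268 and 0.179) and Ralb (0.0749 and 0.0882) also lost their calls in both fits. These calls were thus lost in these 4 libraries with and without the block. The parts of the number of libraries and of which libraries were kept were not tested.

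Other changes in Lin28a-induced against wild-type libraries were Nras with only these groups (0.14, adjusted p = 0.0688) and the fits without a library, which gave 3 to 5 members called, 3 without wild-type replicate 3, with Myc between -0.41 and -0.22 and Nras between 0.12 and 0.19. In no-Cre against wild-type libraries Myc passed with the filter of 1 CPM (-0.25, adjusted p = 0.0458), and it ran from -0.34 to -0.14 in the fits without a library, passing without wild-type replicate 2. A fit without a library pools the spread, so a smaller group is assumed to vary like the others.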
